A study of Mus musculus with 24 samples.

Results

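The antioxidant and glutathione genes were read in the tibialis anterior, which lies along the shin, of mice in which the histone chaperone gene Hira was targeted. They were taken by name: every probe of the glutathione peroxidase, peroxiredoxin and glutathione transferase families, with named superoxide dismutases, catalase, the thioredoxin and glutaredoxin system, glutathione synthesis genes, NRF2 with its inhibitor KEAP1 and its targets, and the sestrins. This gave 60 of 26423 probes, for 56 of 17742 named genes. No probe carried the symbol of Sod1 or G6pdx, and these genes were not analysed here. RNA of 4 Hira CKO (conditional knockout) mice was compared with RNA of 4 control mice, each mouse on 3 arrays. The Hira CKO mice had the genotype Myf6 cre/+; Hira flox/- and the control mice Myf6 cre/+; Hira flox/+. All were 6 weeks old on a mixed background (C57BL6/J;129S1/SvImJ). All carried the Myf6 cre driver, which acts in muscle fibres, and a floxed Hira allele. Other cells of the muscle, without cre, also differed between the groups, by a null or an intact second Hira allele.

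Cells remove hydrogen peroxide and lipid peroxides with peroxidases that draw electrons from glutathione (the GPX family) or from thioredoxin (most PRDX enzymes), and both carriers are recharged with NADPH. Glutathione transferases join glutathione to reactive molecules so that they can be exported. Many of these genes are switched on by the transcription factor NRF2 (gene Nfe2l2) through antioxidant response elements, while KEAP1 marks NRF2 for breakdown. In muscle, mitochondria and NADPH oxidases make oxidants during contraction, and these enzymes hold their level down.

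Values are linear intensities of the authors' normalized table, averaged over the 3 arrays of an animal. Differences are Hira CKO minus control on the log2(value + 16) scale, and a probe passed at an adjusted p under 0.05 in limma over all probes. An intensity cannot be compared between probes, so only groups are compared. The table gave no scan date, slide or detection call, and a batch of arrays cannot be told apart from the groups. The labels do not say whether the mice were littermates. The Hira probe was not lower in Hira CKO, with 558 ± 38.9 in Hira CKO and 495 ± 48.9 in control (SD, n = 4 each), a difference of 0.17 log2 (limma adjusted p 0.193). Where that probe lies relative to the deleted part is not given in the sources used here, so directions rest on the labels. Fibre markers were present, with Tnnt3 at 250780 ± 13494 in Hira CKO and 253033 ± 12756 in control (SD, n = 4 each). Of 9 measured fibre markers, 0 rose and 3 fell: Acta1 (−0.55 log2), Ckm (−0.28) and Ttn (−0.22). Of all genes at the brightest probe, 11.0% rose and 10.3% fell. The calls of Ckm and Ttn were lost in 6 and 8 of the 8 fits that left out 1 animal (adjusted p 0.0714 to 0.112 and 0.0627 to 0.0981 in those fits). The summed intensity of the 9 fibre markers was 1543869 to 1606840.0 in Hira CKO animals and 1626894 to 1840263 in controls. Of 6 endothelial markers 0 rose and 3 fell, namely Kdr (−0.60 log2), Emcn (−0.44) and Pecam1 (−0.36). Tek (0.11 log2), Cdh5 (−0.18) and Tie1 (−0.16) did not pass. The summed intensity of the 6 was 18979 to 20932 in Hira CKO and 22910.2 to 25933 in controls. Pecam1 lost its call in 6 of the 8 fits (adjusted p 0.0852 to 0.116). The summed ranges of the fibre list and of the endothelial list did not overlap between the groups. Among single probes of the whole array, the groups did not overlap for 24.8%. Of the 3 measured red cell, 7 macrophage, 5 neutrophil, 6 fat cell and 6 fibroblast markers 0 rose and 0 fell in limma, and their summed ranges overlapped, as did those of 3 Schwann cell markers. Of 3 liver markers, used to check for absence, 0 passed, but the sums were 3109 to 3572 in Hira CKO and 2584 to 3047 in controls and did not overlap. In red cell markers the sum was 844 to 1509 in Hira CKO and 890 to 1559 in controls. Only 3 of 11 listed red cell markers were measured, and most of the sum was Alas2. Means in Hira CKO and control were 988 and 1161 for Alas2, 117 and 114 for Slc4a1, and 42.9 and 32.6 for Epb42. The part of other cell types in the differences below was not tested, and fewer cells of a type and less RNA per cell cannot be told apart.

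To show the regulatory sequence beside the values, the 300-base promoter window is printed for the members with the smallest adjusted p, a pair that fell and a pair that rose. Each window runs from 250 bases before to 50 bases after the gene start, 5′ to 3′ on the gene's strand, from RefSeq on build GRCm38.p6. Capitals mark the antioxidant response element core TGANNNNGC on either strand. The windows are Mgst3 (lower in Hira CKO, chr1:167393792-167394091, minus strand), Gstp1 (lower, chr19:4037863-4038162, minus strand), Prdx1 (higher, chr4:116685349-116685648, plus strand) and Gpx1 (higher, chr9:108338830-108339129, plus strand).
Mgst3: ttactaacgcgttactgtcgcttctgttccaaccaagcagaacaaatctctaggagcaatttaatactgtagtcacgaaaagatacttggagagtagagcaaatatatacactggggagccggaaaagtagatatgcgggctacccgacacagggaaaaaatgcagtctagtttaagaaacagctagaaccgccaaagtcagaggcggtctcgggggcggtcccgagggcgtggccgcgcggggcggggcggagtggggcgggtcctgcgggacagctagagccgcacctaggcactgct
Gstp1: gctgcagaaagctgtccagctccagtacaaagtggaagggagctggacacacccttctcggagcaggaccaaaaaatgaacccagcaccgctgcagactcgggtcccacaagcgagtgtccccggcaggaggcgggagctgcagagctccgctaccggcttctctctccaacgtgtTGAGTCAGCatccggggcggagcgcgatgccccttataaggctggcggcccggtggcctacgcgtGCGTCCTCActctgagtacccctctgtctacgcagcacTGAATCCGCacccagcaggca
Prdx1: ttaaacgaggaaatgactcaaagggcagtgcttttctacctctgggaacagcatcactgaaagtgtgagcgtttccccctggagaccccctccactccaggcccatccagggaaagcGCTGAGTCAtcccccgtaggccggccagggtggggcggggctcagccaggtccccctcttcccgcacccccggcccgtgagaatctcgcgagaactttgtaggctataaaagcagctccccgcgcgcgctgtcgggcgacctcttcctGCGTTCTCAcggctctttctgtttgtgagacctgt
Gpx1: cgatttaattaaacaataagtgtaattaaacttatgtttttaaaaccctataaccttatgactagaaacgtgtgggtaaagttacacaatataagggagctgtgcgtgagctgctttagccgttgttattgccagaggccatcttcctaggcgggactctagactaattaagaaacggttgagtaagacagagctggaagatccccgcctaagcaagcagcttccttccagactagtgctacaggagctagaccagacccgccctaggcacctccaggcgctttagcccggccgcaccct
The core occurred 3 times in the Gstp1 window, 2 times in the Prdx1 window and 0 times in those of Mgst3 and Gpx1. The stricter core TGACNNNGC, which is a part of the first, occurred once, in the Prdx1 window. So one gene of each pair held the core and the other did not.

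Of the 60 member probes, 8 rose and 6 fell in Hira CKO. That is 23.3% of the members, against 20.6% of all probes on the array, with 10.5% of all probes higher and 10.0% lower. The share of members is near the background, and the members moved in both directions. Their median difference was −0.0039 log2, against 0.012 over all probes, and the median size of a difference was 0.17 log2 in the members and 0.16 log2 over all probes. Animals of the groups did not overlap for 12 members (8 higher and 4 lower), or 20.0%, against 24.8% of all probes. The largest fall was in Mgst3 (−1.17 log2) and the largest rise in Glrx2 (0.79 log2). The counts changed when 1 animal was left out, as did those of the whole array. In those fits 1841 to 2634 of all probes were higher, against 2783, and 1817 to 2499 lower, against 2649. The part of a single animal and that of the smaller group cannot be told apart. The 8 rises became 5 without control animal 2, control animal 3, Hira CKO animal 1 or Hira CKO animal 3. Without control animal 1 they became 11. The 6 falls became 3 without control animal 3, control animal 4 or Hira CKO animal 3, and 7 without control animal 2. Of the 14 called members, 8 kept the call whichever animal was left out: Mgst3, Gstp1, Prdx3, Gpx1, Prdx1, Gstt1, Gstm3 and Glrx2.

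**Figure D1:**
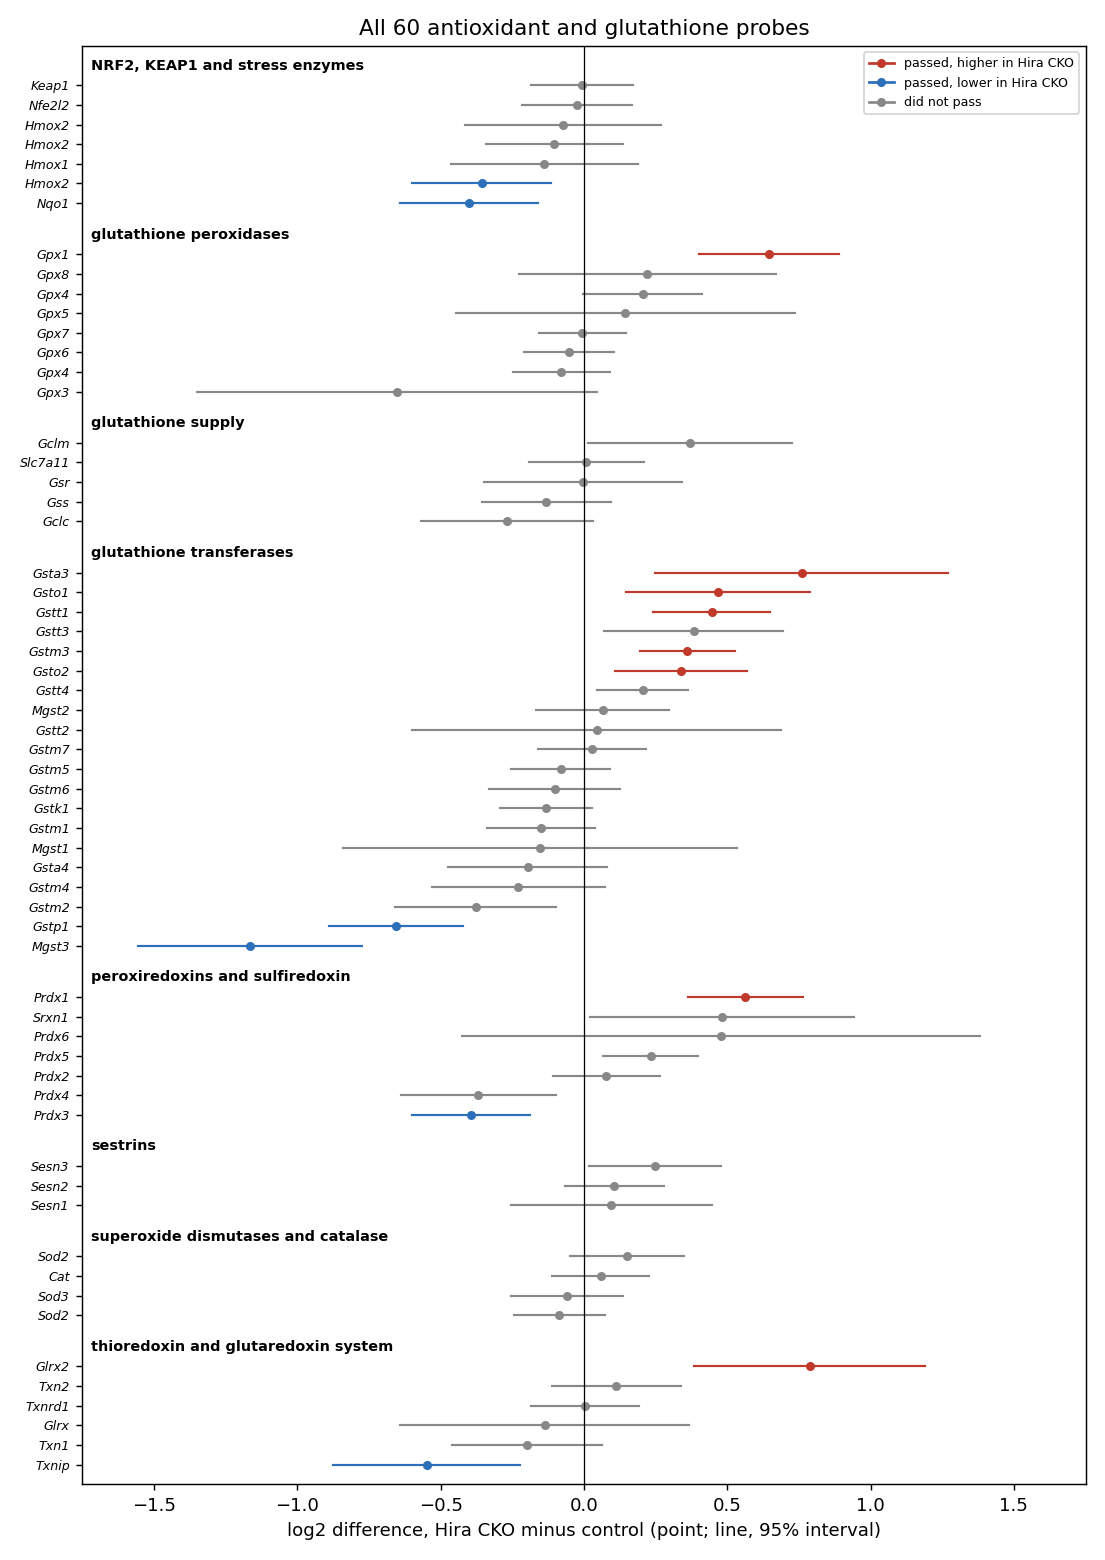
log2 difference (Hira CKO minus control, x axis) of each of the 60 probes, grouped by role, with lines for the 95% interval of the limma fit on 4 against 4 animals. Red points (8) rose and blue points (6) fell, and the grey points did not pass. The transferases run from Mgst3 at −1.17 to Gsta3 at 0.76.

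**Figure D2:**
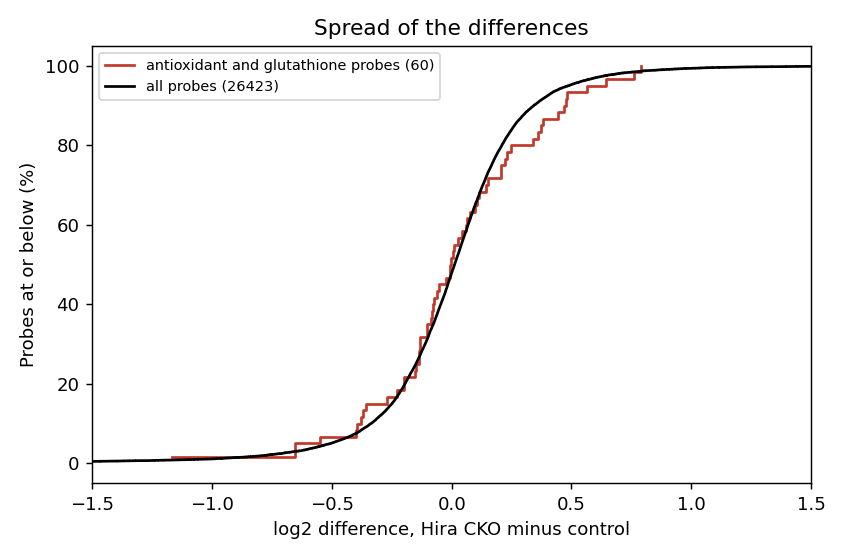
Cumulative share of probes (y axis, percent) by log2 difference (x axis) for the 60 antioxidant and glutathione probes (red) and all 26423 probes (black). Both curves cross the middle near 0, at medians of −0.0039 and 0.012 log2.

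The glutathione transferases, the role group with the most probes, also held the most calls. Of 20 probes, each for a different gene, 5 rose and 2 fell. That is 35.0%, against 20.6% of all probes, and the excess was not tested. Mgst3 encodes a membrane-bound transferase that also reduces lipid hydroperoxides. Its intensity was 16141, 18825, 19583 and 11132 in Hira CKO animals 1 to 4, against 31865, 37029.6, 36492 and 36725 in control animals 1 to 4. Every Hira CKO animal lay below every control animal, and the means were 16420.2 ± 3822 and 35528 ± 2452 (SD, n = 4 each). The difference was −1.17 log2 (SE 0.18, limma adjusted p 0.0016), or 0.446 times the control level. The low value of Hira CKO animal 4 came partly from 1 array, which read 6209 beside 13726 and 13460 on the other arrays. Without that animal the difference was −0.97 log2.

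Gstp1, a cytosolic transferase of the pi class, fell to 26621, 21221, 23513 and 29081 in Hira CKO animals, against 39526, 41555, 40678 and 35459 in controls. The groups were apart, with a difference of −0.66 log2 (SE 0.10, limma adjusted p 0.0022). Mouse Gstp1 has a near-identical neighbour, Gstp2, so which of the genes the probe read is uncertain. The promoter window of Gstp1 holds the core 3 times (sequence above), and that of Mgst3 has none.

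Gstt1, of the theta class, rose to 4545, 4687, 3946 and 4019 in Hira CKO animals, against 3228, 3382, 2774 and 3239 in controls. The groups did not overlap, and the difference was 0.45 log2 (SE 0.09, limma adjusted p 0.0079). Its chromosomal neighbours of the same class were Gstt3 (0.38 log2, limma adjusted p 0.0799), Gstt4 (0.20 log2, limma adjusted p 0.0686) and Gstt2 (0.05 log2, limma adjusted p 0.930), none of which passed. Gstt4 was nevertheless apart between the groups, with 93.9 to 106 in Hira CKO animals and 78.4 to 88.6 in controls, at a dim probe.

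Gstm3, of the mu class, rose to 98.9, 93.0, 98.6 and 97.8 in Hira CKO animals, against 67.8, 80.4, 74.4 and 65.4 in controls (0.36 log2, SE 0.07, limma adjusted p 0.0085). The groups were apart, but the probe was dim, among the lowest 16.6% of the array, and the added 16 makes its difference smaller. The other mu class probes did not pass, and ran from −0.38 log2 for Gstm2 to 0.03 log2 for Gstm7. Mu class sequences are alike, so the probes may share signal.

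The omega class genes Gsto1 and Gsto2 are neighbours and encode enzymes that reduce dehydroascorbate, the oxidised form of vitamin C. Gsto1 was 29043, 21868, 31119 and 20322 in Hira CKO animals, against 21323, 16665, 17475 and 17457.5 in controls (0.47 log2, SE 0.14, limma adjusted p 0.0445). Control animal 1 lay above the lowest Hira CKO animal, so the groups overlapped. Gsto2 was 220.7, 201, 194 and 193 in Hira CKO animals, against 188, 148, 163 and 131 in controls (0.34 log2, SE 0.10, limma adjusted p 0.0442), with no overlap. These calls were close to the threshold. Gsto1 lost its call without control animals 2, 3 or 4 or Hira CKO animals 1 or 3 (adjusted p 0.0910 to 0.115 in those fits). Gsto2 lost its call when any animal but control animal 1 was left out (adjusted p 0.0579 to 0.113).

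Gsta3, of the alpha class, was 428, 286, 395 and 268 in Hira CKO animals, against 277, 156, 129 and 242 in controls (0.76 log2, SE 0.23, limma adjusted p 0.0421). The SD between animals of a group was 0.40 log2, against a median of 0.16 log2 over the members, and the groups overlapped at control animal 1. The call was lost without control animals 2 or 3 or Hira CKO animals 1, 2 or 3 (adjusted p 0.0576 to 0.109). The other 13 transferases did not pass. Among them Gstm5 had 16455 ± 1222 in Hira CKO and 17378 ± 918 in control (−0.08 log2), and Gstk1, the mitochondrial and peroxisomal kappa class enzyme, had 10724 ± 605 in Hira CKO and 11738 ± 530.3 in control (−0.13 log2; SD, n = 4 each).

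**Figure D3:**
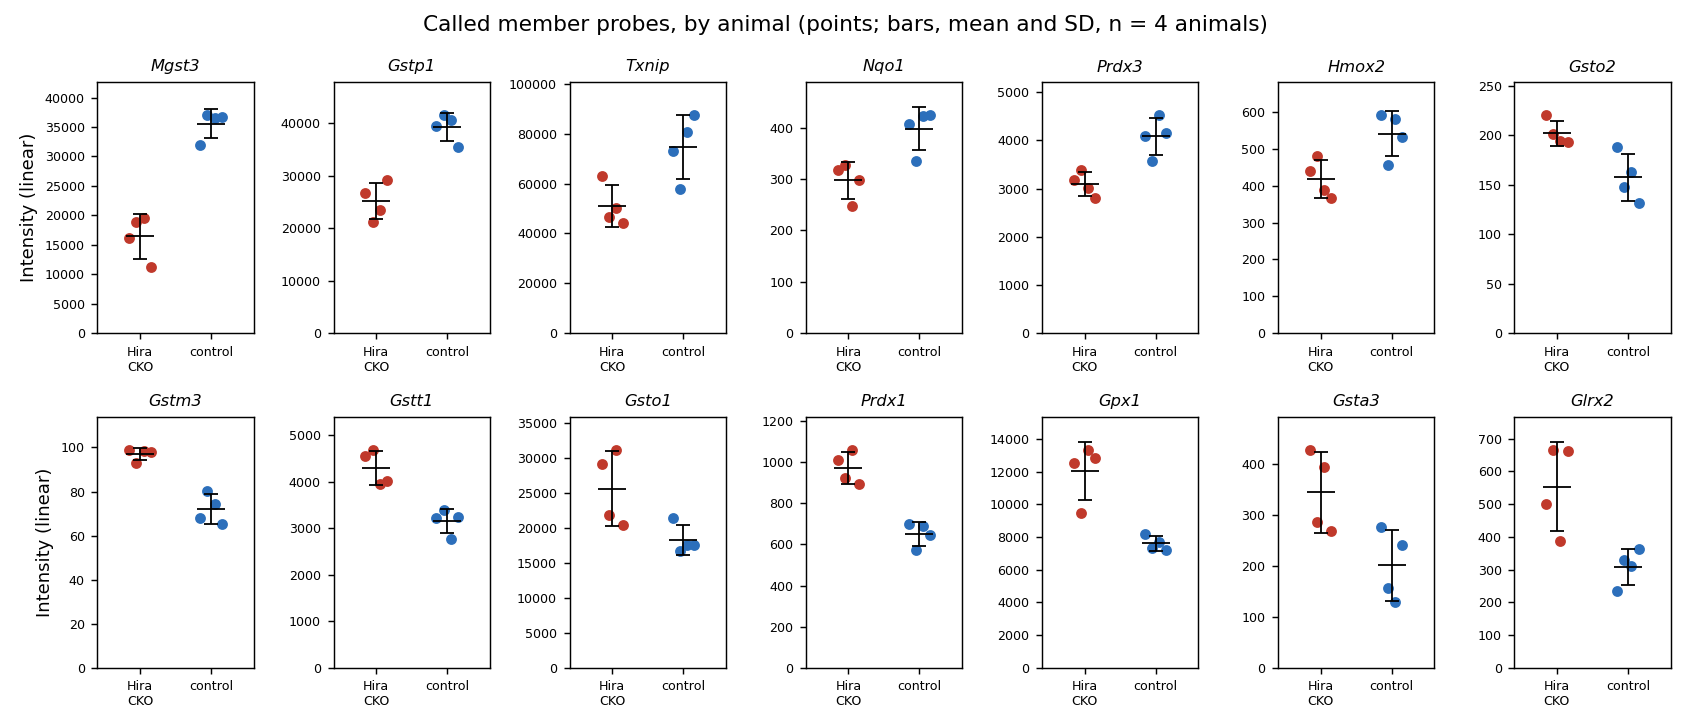
Linear intensity (y axis, from 0) of the 14 member probes that passed, with 1 point per animal, Hira CKO in red on the left and control in blue on the right, and bars for the mean and SD of 4 animals. The groups are apart in 10 of the 14 panels and overlap for Txnip, Hmox2, Gsto1 and Gsta3.

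Of 8 glutathione peroxidase probes (7 genes), 1 rose and 0 fell in limma. An unadjusted limma p under 0.05 was found for 1 of them, against 35.1% of all probes. Gpx1, the selenium-containing peroxidase of cytosol and mitochondria, was 12511, 9437, 13331 and 12834 in Hira CKO animals, against 8189.5, 7343, 7688 and 7186 in controls. All 4 Hira CKO animals lay above all 4 controls. The means were 12028 ± 1760.0 and 7602 ± 444 (SD, n = 4 each), a rise of 0.65 log2 (SE 0.11, limma adjusted p 0.0031). Hira CKO animal 2 was the lowest of its group, and without it the rise was 0.76 log2. Gpx4, which reduces lipid peroxides within membranes, had 112882, 100573, 103136 and 87868.5 in Hira CKO animals, against 95004, 85316, 88488.5 and 80206 in controls at its brighter probe (0.21 log2, limma adjusted p 0.147). At its dimmer probe the difference was −0.08 log2 (limma adjusted p 0.497), so the probes differed in sign and neither passed.

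Gpx3, the secreted peroxidase of plasma, had the largest difference among members that did not pass, −0.65 log2 (limma adjusted p 0.168). It was 24232, 9243, 11515 and 19149 in Hira CKO animals, against 28721, 14784, 23632 and 30059.8 in controls. The spread was between animals, with an SD of 0.56 log2 between animals of a group and of 0.09 log2 between arrays of an animal. The group difference was of the size of the spread within groups.

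Among the peroxiredoxins and sulfiredoxin, 1 of 7 probes rose and 1 fell. That is 28.6%, against 20.6% of all probes, and the difference in shares was not tested. Prdx1, a cytosolic peroxiredoxin, was 1009, 925, 1060.3 and 894 in Hira CKO animals, against 701, 572, 689 and 647 in controls. The groups were apart, with a rise of 0.56 log2 (SE 0.09, limma adjusted p 0.0022). Its promoter window, printed above, was the one with the stricter core.

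Prdx3, the peroxiredoxin of the mitochondrial matrix, was 3183, 3374, 3009 and 2802 in Hira CKO animals, against 4084, 3572, 4525 and 4143 in controls. Each Hira CKO animal was below each control, a fall of 0.40 log2 (SE 0.09, limma adjusted p 0.0145). Prdx1 and Prdx3 thus lay on opposite sides of 0, each beyond the spread between animals. Prdx5, found in mitochondria and peroxisomes, was 54176, 52231, 54187 and 57282 in Hira CKO animals, against 51493, 46272, 43938 and 44237 in controls. The groups were apart, yet the difference of 0.23 log2 just missed the threshold (limma adjusted p 0.0519), and it passed in 3 other settings (adjusted p 0.0359 to 0.0499) and without control animal 1.

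Prdx4, of the endoplasmic reticulum, differed by −0.37 log2 (limma adjusted p 0.0573), and Prdx2 by 0.08 log2 (limma adjusted p 0.547). Prdx6, which uses glutathione, varied most of all members between animals (SD 0.73 log2), with an SD between arrays of an animal of 0.51 log2. It was 245, 706, 740.2 and 761 in Hira CKO animals, against 283, 566, 224 and 650.3 in controls, so low and high animals occurred in both groups (0.48 log2, limma adjusted p 0.438). Srxn1, sulfiredoxin, which repairs over-oxidised peroxiredoxins and is a known NRF2 target, was 1781.5, 1717, 3478 and 2033 in Hira CKO animals, against 1805, 1282, 1492 and 1613 in controls (0.48 log2, limma adjusted p 0.126). Hira CKO animal 3 stood above the other animals.

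In the thioredoxin and glutaredoxin system 1 of 6 probes rose and 1 fell. That is 33.3%, against 20.6% of all probes, and the difference in shares was not tested. Glrx2 encodes a glutaredoxin of mitochondria and nucleus, which takes glutathione off protein thiols. It was 499.5, 666, 388 and 662 in Hira CKO animals, against 233, 328.5, 310.5 and 362 in controls. The highest control lay just below the lowest Hira CKO animal, and the rise was 0.79 log2 (SE 0.18, limma adjusted p 0.0134). Leaving out Hira CKO animal 3 gave 0.94 log2. The cytosolic glutaredoxin Glrx differed by −0.14 log2 and did not pass (limma adjusted p 0.706). The SD between arrays of an animal was 0.61 log2. In Hira CKO animal 2, 1 array read 702 beside 5432 and 5325 on the other arrays, and it is included in both values.

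Txnip, which binds and inhibits thioredoxin and lowers glucose uptake, was 63078, 46576, 50065 and 44135 in Hira CKO animals, against 73139.5, 57661, 80785 and 87516 in controls. The groups overlapped at Hira CKO animal 1 and control animal 2. The fall was 0.55 log2 (SE 0.15, limma adjusted p 0.0262). The call was lost without control animals 3 or 4 or Hira CKO animals 2, 3 or 4 (adjusted p 0.0533 to 0.0702). The thioredoxins Txn1 (−0.20 log2) and Txn2 (0.11 log2) and the reductase Txnrd1 (0.0036 log2, 95% interval −0.19 to 0.19) did not pass.

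For the supply of glutathione, 0 of 5 probes passed in limma. Against 35.1% of all probes, 1 of the 5 had an unadjusted limma p under 0.05. That was Gclm, the modifier subunit of the enzyme that starts glutathione synthesis, at 0.37 log2 (limma adjusted p 0.127), while its catalytic partner Gclc was at −0.27 log2 (limma adjusted p 0.185). Gclm was 448, 403, 436 and 323 in Hira CKO animals, against 287, 226, 365 and 354.5 in controls. Gclc was 263, 372, 338 and 321 in Hira CKO animals, against 382, 309, 408.5 and 471.5 in controls. Both subunits overlapped between the groups. Gss, which completes glutathione, was 4216, 3812, 4374 and 3838 in Hira CKO animals, against 4367, 5352, 4211 and 3957 in controls (−0.13 log2, limma adjusted p 0.389). Gsr, which recharges oxidised glutathione, differed by −0.0021 log2 (95% interval −0.35 to 0.34), and the cystine carrier gene Slc7a11 by 0.0084 log2 (95% interval −0.19 to 0.21).

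Of 4 superoxide dismutase and catalase probes 0 passed in limma, and 0 had an unadjusted p under 0.05 (35.1% over all probes). Sod2, the mitochondrial enzyme, was 56705, 55352, 52569.6 and 50171.5 in Hira CKO animals, against 54993, 55085, 60432 and 57101 in controls at its brighter probe. The difference was −0.09 log2, with a 95% interval of −0.25 to 0.08. Its other probe was dim, at 66.3 ± 9.43 in Hira CKO and 57.8 ± 4.20 in control (SD, n = 4 each), and differed by 0.15 log2. The extracellular Sod3 was at −0.06 log2 and catalase at 0.06 log2. The catalase probe was dim, among the lowest 22.9% of the array. It read 117.2 ± 7.49 in Hira CKO and 111.8 ± 7.97 in control (SD, n = 4 each), so a change in catalase RNA could be missed.

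NRF2 and its inhibitor showed no called difference. Nfe2l2 was 2783, 2842, 2547 and 2418 in Hira CKO animals, against 2778, 2388, 2728 and 2888 in controls, a difference of −0.03 log2 (95% interval −0.22 to 0.17). Keap1 was 7814, 8556, 7412 and 8326 in Hira CKO animals, against 7859, 7851, 8912 and 7623 in controls, a difference of −0.0062 log2 (95% interval −0.18 to 0.17). These arrays measure RNA, and NRF2 is known to be set mainly by protein breakdown. Nqo1, a quinone reductase and a classic NRF2 target, was 318, 327, 247 and 299 in Hira CKO animals, against 406, 336, 423.5 and 425 in controls. The groups were apart by a small step, a fall of 0.40 log2 (SE 0.11, limma adjusted p 0.0265). The call was lost without control animals 1, 3 or 4 or Hira CKO animal 3 (adjusted p 0.0524 to 0.0737). The inducible heme oxygenase Hmox1 was at −0.14 log2 (limma adjusted p 0.540).

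Hmox2, the constitutive heme oxygenase, was read by 3 probes, of which 1 fell. That probe was 439, 481, 389.5 and 366 in Hira CKO animals, against 592, 458, 582 and 533 in controls (−0.36 log2, SE 0.11, limma adjusted p 0.0441). The groups overlapped at Hira CKO animal 2 and control animal 2. It lost its call without control animals 1, 3 or 4 or Hira CKO animals 1, 3 or 4 (adjusted p 0.0728 to 0.114). The brightest Hmox2 probe had 9784, 8330.5, 9908 and 9871 in Hira CKO animals, against 12449, 9653, 9190 and 9290 in controls (−0.10 log2, limma adjusted p 0.535), and the third, near the floor of the array, differed by −0.07 log2. The fall therefore rests on 1 of 3 probes.

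**Figure D4:**
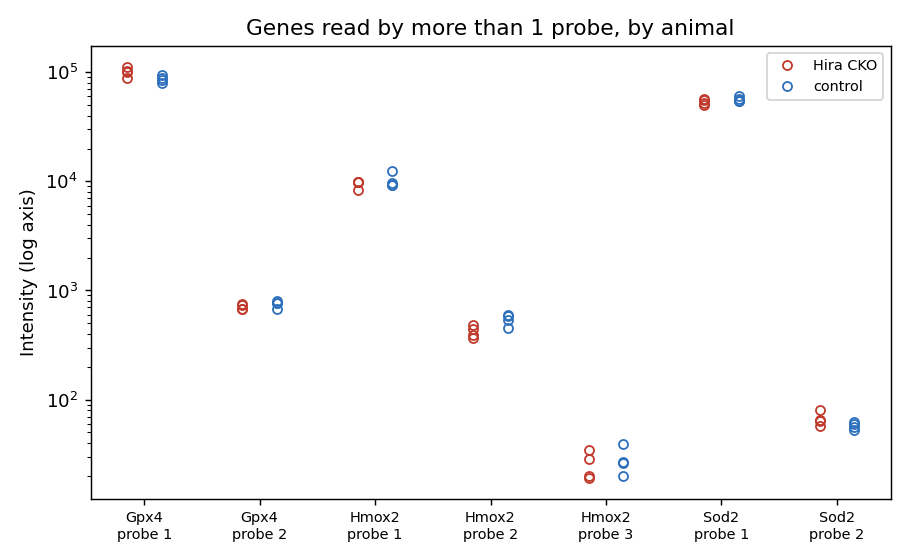
Intensity by animal (log axis) for the 3 member genes with more than 1 probe, ordered by brightness within a gene, Hira CKO in red and control in blue. Only the second Hmox2 probe passed, and the probes of Gpx4 and of Sod2 differed in sign.

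The sestrins, which restrain growth signalling under stress, had 0 of 3 probes past the threshold in limma. An unadjusted limma p under 0.05 was found for 1, Sesn3 (0.25 log2, limma adjusted p 0.118), against 35.1% of all probes. Sesn1 was 3796, 4058, 5567 and 3347.5 in Hira CKO animals, against 4658, 3265, 3805 and 3792 in controls (0.10 log2, limma adjusted p 0.705). Sesn2 differed by 0.11 log2 (limma adjusted p 0.362).

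Within a group, the members varied from animal to animal by a median SD of 0.16 log2, against 0.14 log2 for all probes. Some members varied more between animals of a group than between arrays of an animal. Mgst1, a microsomal transferase, was 3126, 1648, 1435 and 2203 in Hira CKO animals, against 1343, 2035, 3692 and 2462 in controls. Gstt2 was 1273, 1303, 786 and 559 in Hira CKO animals, against 1349.6, 638, 836 and 899 in controls. For these genes the SD between animals was 0.55 and 0.52 log2 and between arrays 0.17 and 0.10 log2, and the differences of −0.15 and 0.05 log2 did not pass. At the level of single arrays, the 12 arrays of one group lay wholly apart from the 12 of the other for 6 members, or 10%, against 6.77% of all probes. These were Mgst3, Gstp1, Gpx1, Prdx1, Gstt1 and Glrx2.

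**Figure D5:**
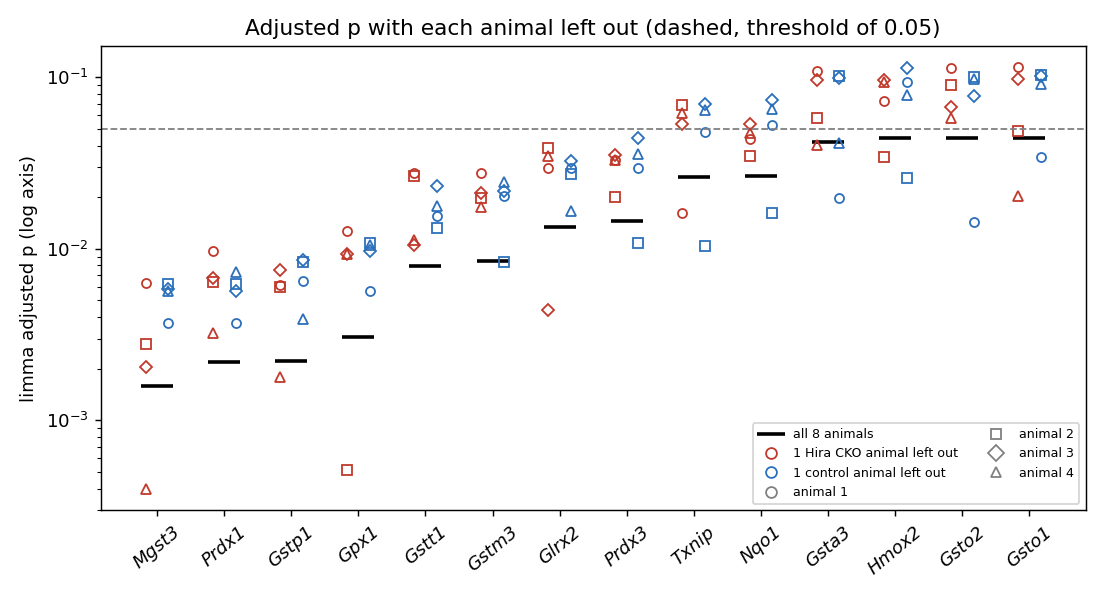
limma adjusted p (log axis) of the 14 called members, with a black bar for all 8 animals and open symbols for fits that left out 1 Hira CKO animal (red) or 1 control animal (blue), shaped by animal number. The 8 members from Mgst3 to Prdx3 stay below 0.05 in every fit, and the 6 from Txnip to Gsto1 cross it.

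Further genes of the pathway were taken from a list. It covered glutathione turnover, thioredoxin partners, methionine sulfoxide reductases, selenoproteins, NADPH supply, NRF2 partners and targets, other antioxidant proteins, and oxidant sources. Of 99 measured genes, each at its brightest probe, 11 rose and 10 fell, or 21.2%. This equals the 21.2% of all genes called at their brightest probe, of which 11.0% rose and 10.3% fell. The list had a median difference of −0.01 log2. Of 9 NADPH supply genes 2 rose and 0 fell, and of 24 NRF2 partners and targets 1 rose and 3 fell. Of 14 genes of selenoproteins and their synthesis 1 rose and 3 fell.

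The largest changes in that list went both ways. Selenot, a selenoprotein of the endoplasmic reticulum, fell by 1.30 log2 (SE 0.13), with 6367 ± 721 in Hira CKO and 15560.0 ± 2322 in control, while its dimmer probe differed by −0.27 log2 and did not pass (limma adjusted p 0.129). Glrx3, a glutaredoxin that handles iron-sulfur clusters, rose at all 3 of its probes, by 0.77, 0.46 and 0.21 log2. At the brightest it had 18838 ± 840.2 in Hira CKO and 11022.5 ± 600.1 in control. Idh2, the mitochondrial enzyme that makes NADPH from isocitrate, rose by 0.78 log2 (SE 0.18), with 24147 ± 3094 in Hira CKO and 14347 ± 3777 in control.

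Mafk, a small MAF protein that pairs with NRF2 on DNA, fell by 0.78 log2 (SE 0.11), with 1403 ± 133 in Hira CKO and 2409 ± 322 in control. Nfe2l1, a relative of NRF2 that controls proteasome genes, fell by 0.59 log2 (SE 0.13), with 10846 ± 1868 in Hira CKO and 16273 ± 2119 in control. Glo1, which uses glutathione to clear methylglyoxal, fell at 2 of 3 probes, by 0.76 and 0.74 log2, and the third differed by −0.36 log2. Aox1, an aldehyde oxidase, rose by 0.73 log2 (SE 0.16), and Ggt5, a gamma-glutamyltransferase that acts on glutathione, fell by 0.68 log2 (SE 0.14) at a dim probe. The means and SDs are over 4 animals a group, and the limma adjusted p of these 8 genes at the brightest probe ran from 0.00011 for Glrx3 to 0.0158 for Glo1. All 8 kept the call in every fit that left out 1 animal.

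Promoter windows were found for 49 of the 56 member genes, in 69 windows, since a gene can have several starts. The core TGANNNNGC was in at least 1 window of 23 genes, or 46.9%, against 45.0% of 27025 genes in the whole table. By window the shares were 37.7% of the member windows and 41.3% of all windows. Among called members it was present for 5 of the 8 that rose (Prdx1, Gstt1, Gstm3, Gsta3 and Glrx2) and for 1 of the 6 that fell (Gstp1). Of the 35 members not called, 17 held it (48.6%). Counted by window, it was in 5 of 12 windows of those that rose (41.7%) and 1 of 8 of those that fell (12.5%). The share for those that rose was thus near that of all windows. Glrx2 had 4 windows. The stricter TGACNNNGC was in windows of 10 member genes, or 20.4%, against 14.0% of all genes. The stricter core was in 2 of the 8 called members that rose (Prdx1 and Gsta3) and in 0 of the 6 that fell. Of the 35 members not called, 8 held it (22.9%), so it was not confined to members that rose. A match is a run of letters in this window and is given as a description.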

How the data were processed

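Total RNA (5 micrograms, Cy5-labelled, extracted with Trizol from frozen muscle, per the labels) was hybridised on 1-colour arrays, 3 per animal. The deposited table held linear intensity values, normalized by the authors: array medians lay between 431.5 and 433.5 and the highest value was 439069.7 on all 24 arrays. Background method, software and genome build are not given in the sources used here. Probes were named from the platform annotation (20377 of 26423 carried a symbol), updated through RefSeq GRCm38.p6. Values below 0 were set to 0, 16 was added and log2 taken. The log2 values of each animal's 3 arrays were averaged. limma 3.58.1 (R 4.3.3) then fitted the group difference with lmFit and eBayes, and p-values had Benjamini-Hochberg adjustment over all probes. The number of animals, 4 a group, limits the precision. The members and lists were chosen with earlier results of these data known. By rule, animal values are given for called members, the brightest member of each role, Nfe2l2 and Keap1. Those of Gpx3, Prdx6, Srxn1, Gclm, Gclc, Mgst1, Gstt2 and the ranges of Gstt4 were added after their values were seen. The fit was checked on simulated data. Alternatives were other pseudocounts (1 and 50), a filter on the dimmest 30% of probes, other averaging, centring, variance models, an animal block and each animal left out. Animals with the same number deviated together (r over 0.1) in 1 of 4 pairs. Figures were drawn with matplotlib 3.10.9.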

Additional observations from a re-analysis of the deposited data

Results flagged for a closer look

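Among 120 sets of 4 animals (60 probes, 2 groups), 6 had 1 animal far from the others by Dixon's ratio (the gap to the nearest animal over the whole range), past its 95% critical value. Chance flags about 1 set in 20. In Hira CKO, Hmox2 at its brightest probe was low in animal 2 (8330.5, ratio 0.927), and Prdx6 was low in animal 1 (245, ratio 0.933). In controls animal 1 was the one apart each time. It was high for Hmox2 at the same probe (12449, ratio 0.838) and for Gstt3 (1588, ratio 0.908), and low for Mgst3 (31865, ratio 0.903) and Txn1 (265, ratio 0.924). Of these probes only Mgst3 had passed the test, and it passed without that animal too. Of the 8 fits that left out 1 animal, Gstt3 passed only in the one without control animal 1.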

How the results depend on the processing

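The count of members that rose was 5 to 11 and of those that fell 3 to 7 with 1 animal left out, against 8 and 6. In the same fits the listed cell type markers that fell numbered 3 to 5 against 6, and all probes higher 1841 to 2634 against 2783, lowest without Hira CKO animal 1. With all 24 arrays and the animal as a random block, 18 pathway genes fell against 10 and 15 rose against 11, while calls over the whole array went up as well, to 3605 higher against 2783 and 3649 lower against 2649. With 1 animal left out, the differences of Keap1, Nfe2l2 and Sesn1, none of them called, changed sign in at least 1 fit, over a range of −0.0387 to 0.0436 log2 for Keap1, −0.0818 to 0.0173 for Nfe2l2 and −0.0487 to 0.195 for Sesn1. With the animal number as a replicate block 9 members rose and 7 fell, and Hmox2 (adjusted p 0.0752) and Nqo1 (0.0554) lost their calls. Whether the numbers pair the animals is not known. Correlations were −0.0643 to 0.296 for pairs of the same number and −0.213 to 0.173 for the other pairs. Gsta3 lost its call with a trended and robust variance (adjusted p 0.0546). The causes were not tested. No called member changed sign in the 16 other settings, wherever its probe was kept. The filter on the dimmest 30% of probes removed that of Gstm3, and 7 members rose with it. No detection calls were used, so whether dim probes, such as those of Gstm3, Gsto2 and Ggt5, were above background is not known.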
